A study of Mus musculus with 199 samples.

Results

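Eosin dissolved in 40% ethanol and eosin dissolved in water were compared as stains for nuclear slices in multiplex-GAM, the form of genome architecture mapping (GAM) that sequences several slices in a single tube. The 16 libraries were those labelled eosin-test eosin-etoh 4np (8 libraries) and eosin-test eosin-h2o 4np (8 libraries), out of 199 libraries in the series. Every one of the 199 had failed the quality control of the study, so the comparison is between failed libraries, and the libraries that passed are not analysed here. All 16 came from 46C mouse embryonic stem cells of the 129/Ola strain, a single Sox1-GFP knock-in line derived from E14tg2a. The GFP marks neural precursors and is not a readout here. The cells had been kept in serum with LIF and were moved to serum-free medium for the last day before harvest. By the labels, both groups were handled alike except for the solvent. The methods of the paper give other recipes, in which eosin and acid content also differ between the solvents. Cryosections of 220 nm were stained with 0.5% eosin for 10 min and rinsed 2 times for 30 s in water. With a laser, 4 cell profiles were cut into each cap. After lysis the samples were frozen overnight at -20 °C, and the DNA was amplified with 25 PCR cycles. No treatment was given to the cells themselves. The labels do not say whether libraries came from separate cultures, so p-values measure the spread between these libraries, which may be technical.

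GAM reads nuclear organisation from what falls together in thin slices. Each chromosome occupies its own territory in the nucleus, so a slice catches some territories and misses others, and loci that are neighbours on the chromosome fold are usually caught together. Eosin is an acidic dye that colours proteins, mainly of the cytoplasm, and does not rely on binding DNA. The quantity deposited for each library was a call, 1 or 0, for each 40 kb window of the mouse genome. A call of 1 meant that the window was taken as present in the cap. Coverage is the share of the 65983 windows of chromosomes 1 to 19 and X that were called.

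All 8 libraries of the water group stood in plate column 2 and all 8 of the ethanol group in column 3, so plate column and solvent cannot be told apart. Each of plate rows A to H held 1 library of either solvent. In the text, replicates 1 to 8 are rows A to H, and these numbers do not pair the libraries. Among the 11 water controls of the series, which received no profile, coverage was at most 0.476% in 9, and the highest was 21.4%. The only unstained library of the eosin experiment had 51 called windows, a coverage of 0.0773% (Wilson 95% interval 0.0588% to 0.102%). It has no replicate and was left out of the comparison.

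Before the solvents are compared, it helps to see what the libraries shared. Only 1 window, chr2:98480001-98520000 (mm9), was called in all 16, and it holds the predicted genes Gm10801 and Gm10800. The window chr6:103560001-103600000 within Chl1, a neural cell adhesion gene, was called in 15 libraries. Next came chr10:128120001-128160000 with Rab5b, Cdk2, Pmel and Dgka, and chr11:3040001-3080000 with Sfi1, a centriole gene, each called in 14. The fifth, chr9:3000001-3040000, was called in 13 libraries, 8 stained in ethanol and 5 stained in water, the same total as a window without a gene on the X. It is the first sequenced window of that chromosome and holds a tandem repeat with a period of 234 bases. A unit of that repeat, chr9:3027501-3027734 on the plus strand of mm9, is printed here. It was cut from this window, so matches of its pieces there were fixed in advance. The capitals mark a 20-base piece that was one of the 11 pieces searched for on both strands.

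chr9 repeat unit: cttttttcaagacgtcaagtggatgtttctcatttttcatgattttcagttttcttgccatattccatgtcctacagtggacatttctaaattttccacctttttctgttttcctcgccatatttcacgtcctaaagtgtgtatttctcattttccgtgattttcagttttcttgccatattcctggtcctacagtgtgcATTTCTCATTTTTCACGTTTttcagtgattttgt

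The unit had a GC content of 35.5% and matched the following unit at 91.9% of bases over a stretch of 1500. Exact copies of any of its 11 consecutive 20-base pieces lay in 11 of the 65983 windows, 0.0167% of them. Of 655 matches, 607 were in the chr9 window and 21 in the chr2 window that every library called. A further 7 were in chr9:35080001-35120000, a window with Rpusd4 and Gm5614 that was called in 11 libraries and was chosen after its values were seen. Of the 17 windows called in 8 or more of the 16 libraries, 3 held a match, and the window the unit was cut from is among them. The chr6, chr11 and X windows named above held none. The chr2 and both chr9 windows were each called in 2 of the 11 water controls and in none of the 9 with low coverage. The chr10 window, which held no match, was called in 3 water controls, 2 of them with low coverage. Across all 186 libraries of 4 profiles, the chr2 window was called in 139. Recurrence on this scale was rare, since 23307 windows were called in a single library of the 16 and 22442 in none.

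**Figure D1:**
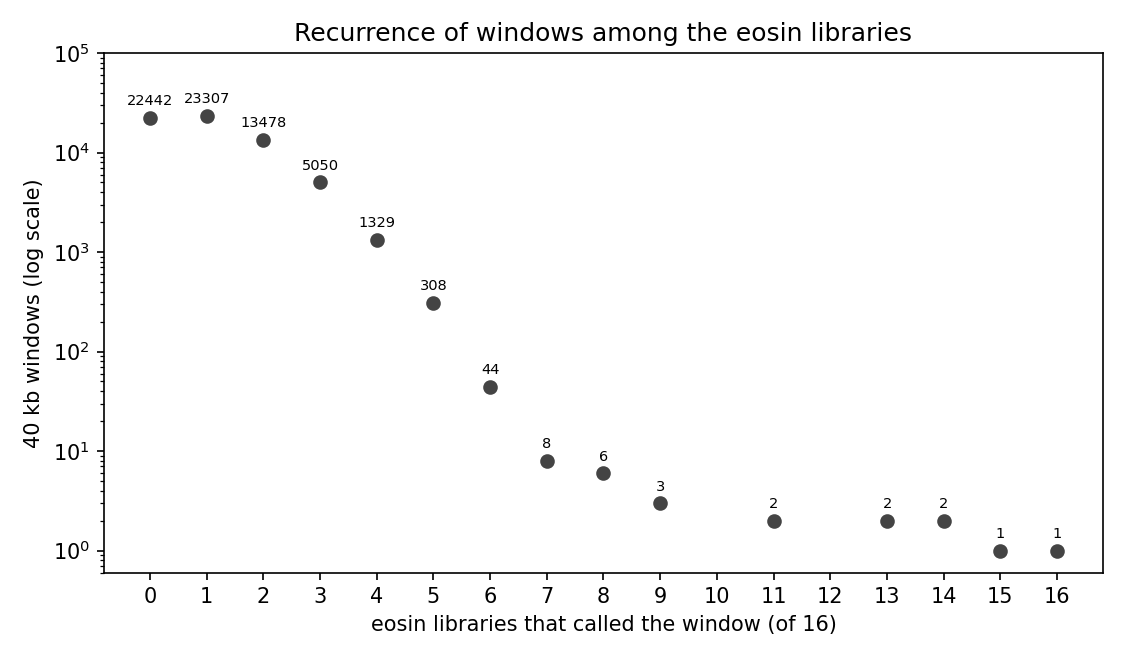
Number of 40 kb windows (log scale) against the number of the 16 eosin libraries that called them. Most windows were called in 0 to 3 libraries, 308 in 5, 44 in 6, and 1 in all 16.

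Ethanol-stained libraries tended to have more called windows, and the tendency did not pass the test. Coverage with eosin in ethanol ran from 1.22% to 13.6%, with a median of 8.38%. With eosin in water it ran from 2.46% to 8.78%, with a median of 5.40%. The groups overlapped, because ethanol replicate 8 was the lowest library of all while replicates 1, 3, 5 and 7 of the ethanol group exceeded the highest water library. The means were 8.34% ± 3.86 (SD, n = 8) in ethanol and 5.44% ± 2.20 (SD, n = 8) in water. The difference was 2.90 percentage points (SE 1.57), with p = 0.0875 in the two-sided exact permutation test and 0.299 after Benjamini-Hochberg adjustment over the 13 measures of this comparison. An ethanol library was higher in 51 of the 64 ethanol-water pairs and in 7 of the 8 plate rows. Without ethanol replicate 8 the difference was 3.91 points (exact permutation p = 0.00948, adjusted 0.123, or 0.0593 with all 13 measures refitted without that library). In medians it was 2.98 points (exact permutation p = 0.0444, adjusted 0.289). With coverage on the log2 scale it was 0.486 (exact permutation p = 0.307, adjusted 0.499). A p above the threshold does not show that the solvents give the same coverage.

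**Figure D2:**
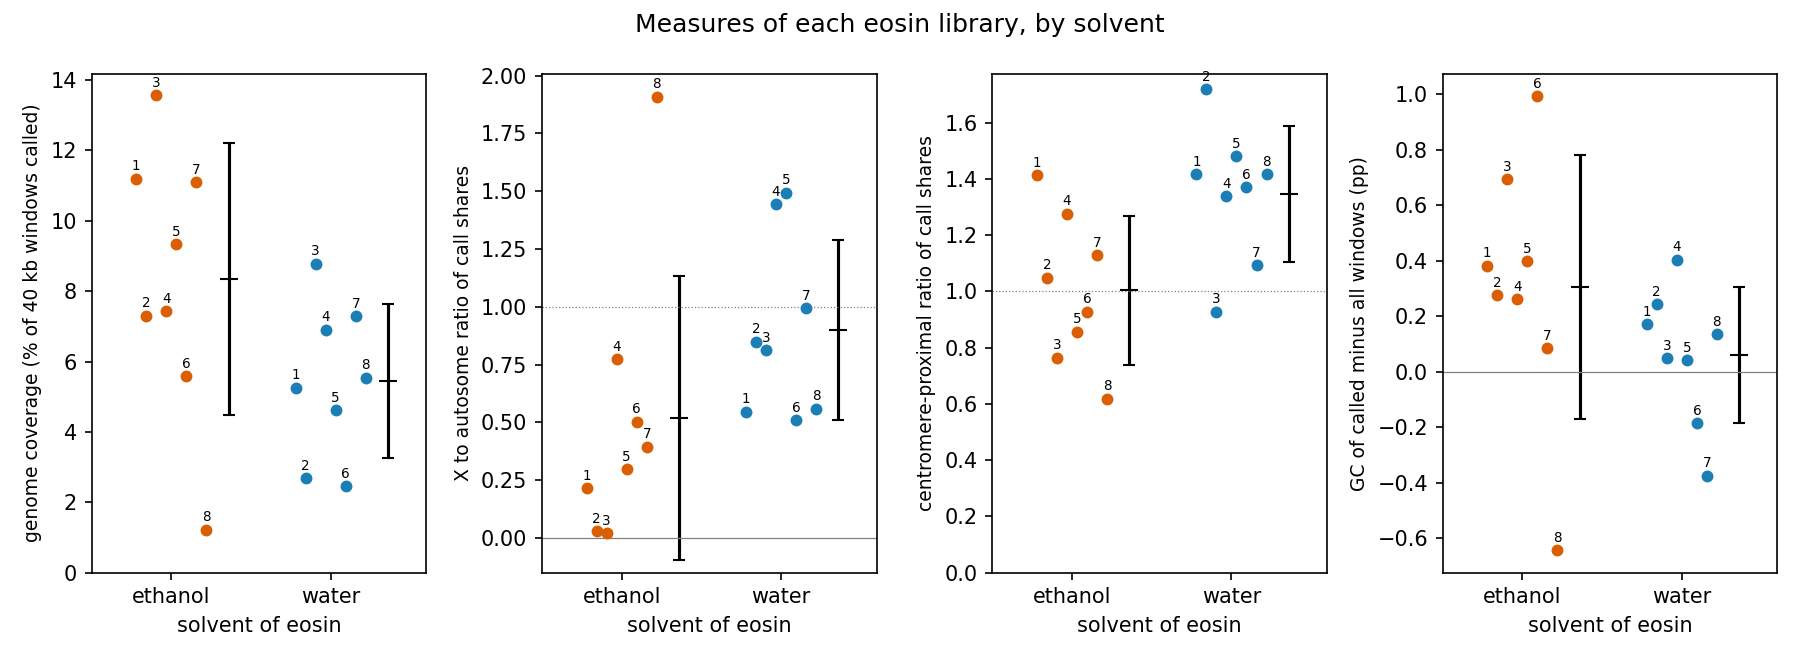
Each point is 1 library, numbered by replicate, and the black bars give the mean and SD of 8 libraries. Panels show genome coverage (%), the X to autosome ratio, the centromere-proximal ratio and the GC shift (percentage points, pp). Ethanol replicate 8 lies apart from its group in X ratio (1.91), and the solvents overlap in all 4 panels.

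The pooled calls of the groups differed in number. Pooled over its 8 libraries, ethanol staining reached 49.0% of the windows and water staining 35.8%. Both solvents called 12417 windows, which were 38.4% of those called with ethanol and 52.6% of those called with water. Together the 16 libraries called 66.0% of windows at least once. These shares follow the number of calls in each group and carry no test.

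Called windows came in short clusters in both groups. The neighbour excess is the share of called windows with a called window beside them, minus the share that random placement would give at the same coverage. It was 30.4 ± 10.1 percentage points (SD, n = 8) in ethanol and 27.1 ± 11.2 in water (SD, n = 8), a difference within the spread between libraries (exact permutation p = 0.537, adjusted 0.623). As each library was left out in turn, the difference of 3.33 points ranged from 0.882 (without water replicate 6) to 6.56 (without ethanol replicate 8). It was 0.254 when a called window within 2 windows counted as a neighbour (exact permutation p = 0.963) and 5.89 in medians. Libraries with the fewest calls had the lowest values. Ethanol replicate 8, with 807 calls, had an excess of 7.73 points, and water replicates 6 and 2, with 1626 and 1773 calls, had 9.96 and 16.8 points. Unbroken runs of called windows averaged 1.42 ± 0.194 windows in ethanol and 1.31 ± 0.180 in water (exact permutation p = 0.245, adjusted 0.398, n = 8 each). Their difference of 0.113 windows was 0.0729 without ethanol replicate 3 and 0.259 when runs bridged a gap of 1 window.

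Single-window runs made up the larger part of all runs in every library, from 63.3% in ethanol replicate 3 to 95.0% in ethanol replicate 8. The longest run of any library was 22 windows (0.88 Mb) at chr19:40880001-41760000 in ethanol replicate 3. The longest in water was 16 windows (0.64 Mb) at chr17:94160001-94800000 in replicate 3. Runs of 10 windows or more numbered 23 in ethanol replicate 3 and 8 in water replicate 3, and 9 of the 16 libraries held none or 1.

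Windows up to megabases apart on a chromosome were called together more often than random placement would give. In both groups this excess fell with distance up to 6 Mb. It was measured as how often windows at a set distance were called in the same library, relative to random placement, on the log2 scale. At 40 kb this enrichment was 1.84 ± 0.26 in ethanol and 2.01 ± 0.20 in water (SD, n = 8 each). At 400 kb it was 1.41 ± 0.24 and 1.59 ± 0.15. At 4 Mb it was 0.66 ± 0.19 and 0.71 ± 0.14. Water libraries were higher on average at each of these distances, and no difference passed the test. At 4 Mb the difference of -0.05 ran from -0.09 to -0.02 as libraries were left out in turn, was -0.11 on the autosomes alone, and turned to 0.06 without windows called in any water control. At 400 kb the difference was -0.18 in means and -0.31 in medians (for medians, exact permutation p = 0.0421, adjusted 0.274). The exact permutation p was 0.167 at 40 kb, 0.0895 at 400 kb and 0.575 at 4 Mb, and the adjusted values were 0.363, 0.299 and 0.623. At 6 Mb the means were 0.44 in ethanol and 0.56 in water, and at 10 Mb they were 0.54 ± 0.18 and 0.48 ± 0.16 (SD, n = 8 each). Libraries with more calls reach a lower ceiling on this ratio, and the part of coverage in these differences was not tested. Random placement took the coverage of the whole library, so unevenness between chromosomes also raises the ratio at every distance. That part was not tested either.

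**Figure D3:**
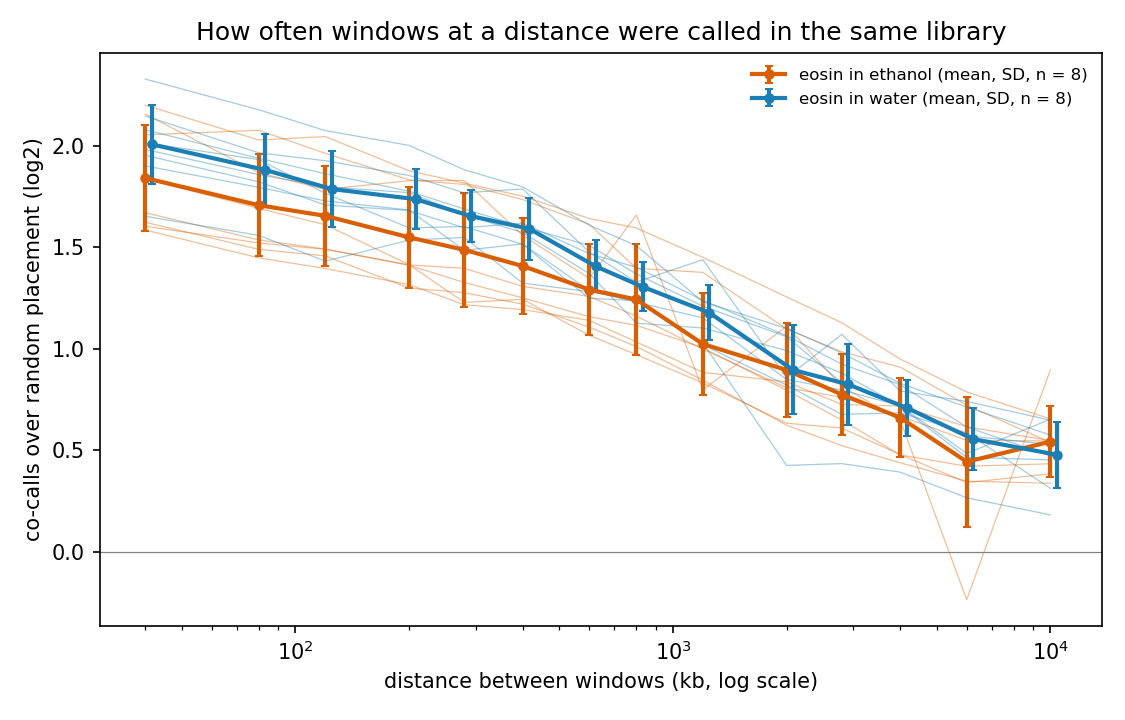
Enrichment of co-calls over random placement (log2) against distance between windows (kb, log scale). Thin lines are libraries, thick lines are means with SD (n = 8), and both solvents fall from about 2 at 40 kb to about 0.5 at 10 Mb.

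Single chromosomes had few calls or none in libraries of either solvent. The relative coverage of a chromosome is the share of its windows called, divided by the share of all windows called in that library, so 1 means an average chromosome. Values under 0.1 occurred 5 times in ethanol, once each in 5 libraries, and 6 times in 4 water libraries, out of 160 chromosome values for either solvent. Chromosome X was nearly absent from ethanol replicates 2 and 3, with 9 and 13 called windows of 4167. Chromosome 19 was nearly absent from ethanol replicate 4, chromosome 1 from replicate 7 and chromosome 6 from replicate 8. In water, chromosome 19 had no call in replicates 5 and 8, 0 of 1534 windows. That allows a share of up to 0.196% if windows are counted as independent. Calls came in clusters, so the true limit is wider. Chromosome 7 was nearly absent from water replicate 2, and chromosomes 4, 12 and 15 from water replicate 4. Chromosome 19 had such a low value in 3 libraries and the X in 2, and the other 6 chromosomes named here in 1 each.

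Chromosomes were also over-represented in single libraries. Values over 2 occurred 6 times in ethanol and 11 times in water. In ethanol replicate 3, 36.1% of chromosome 19 was called against 13.6% of the genome. In ethanol replicate 4, 22.7% of chromosome 7 was called, 3.06 times the average of that library. The highest relative coverage was 3.62, for chromosome 17 in water replicate 2. The unevenness over the 19 autosomes, as a coefficient of variation, was 0.513 ± 0.0773 in ethanol and 0.593 ± 0.0968 in water (SD, n = 8 each). That difference did not pass the test (exact permutation p = 0.0920, adjusted 0.299).

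**Figure D4:**
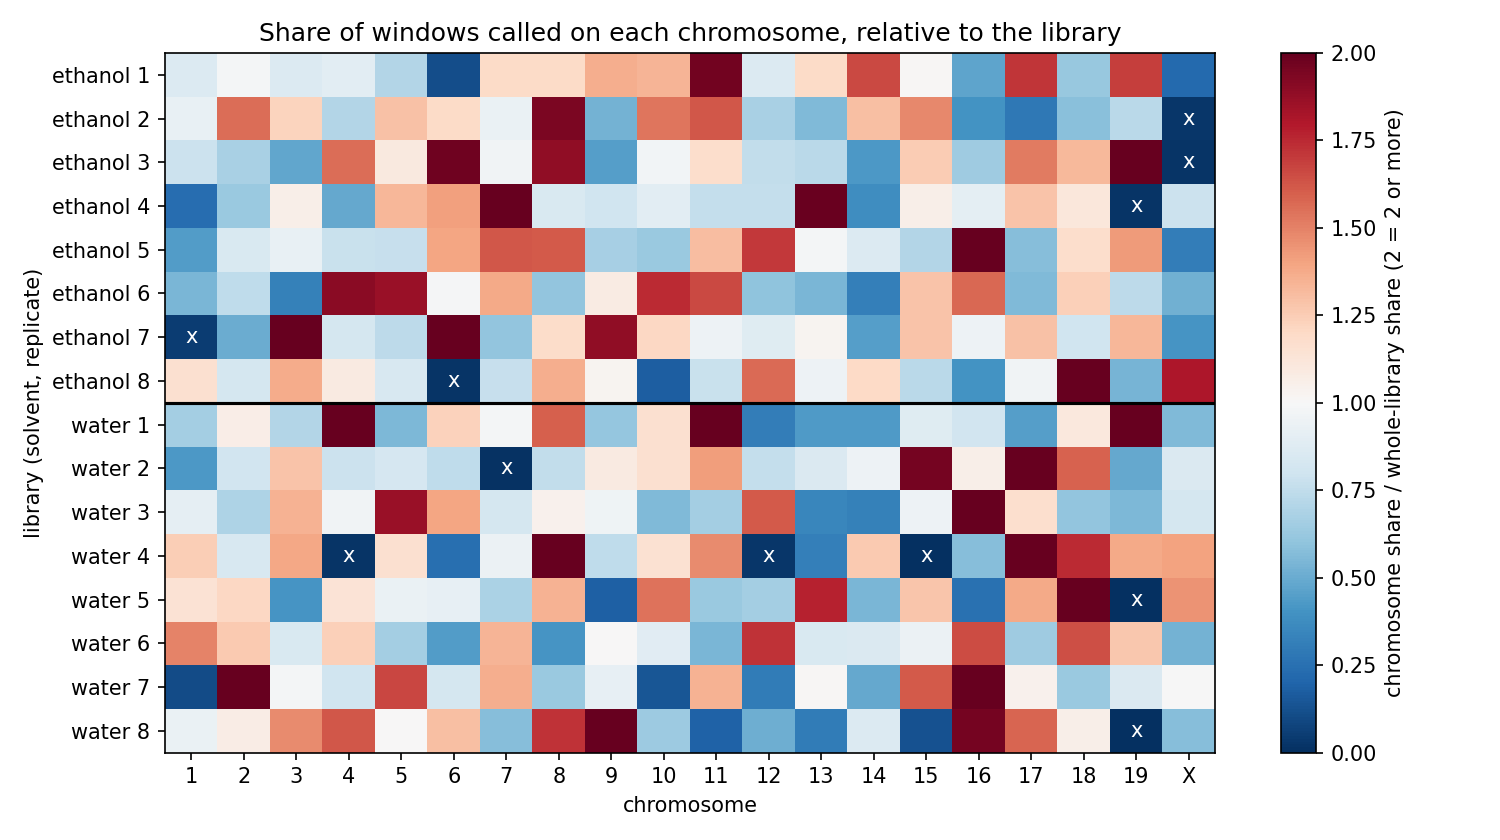
Relative coverage of each chromosome (columns) in each of the 16 libraries (rows, ethanol above the line, water below), from 0 in dark blue to 2 or more in dark red. White crosses mark values under 0.1, of which there are 5 in ethanol and 6 in water, spread over 8 chromosomes.

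No chromosome differed in relative coverage between solvents after adjustment over the 20 chromosomes (0 with adjusted p below 0.05 and 0 with unadjusted exact permutation p below 0.05). With the share called left undivided, chromosomes 10, 7 and 13 were higher in ethanol at unadjusted exact permutation p = 0.0267, 0.0322 and 0.0339, and all 3 had an adjusted p of 0.226. In relative coverage, the 3 with the smallest p were X, 7 and 2, and all had an adjusted p of 0.767. Relative coverage of chromosome 7 was 1.31 ± 0.777 in ethanol and 0.839 ± 0.437 in water (SD, n = 8 each, exact permutation p = 0.149). For chromosome 2 it was 0.846 ± 0.322 and 1.15 ± 0.494 (exact permutation p = 0.167).

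The X had the smallest p of the 20 chromosomes in relative coverage (exact permutation p = 0.134, n = 8 each). E14tg2a is a male line, so the X is present as a single copy before replication. The X to autosome ratio divides the share called on the X by that on the autosomes, and had a lowest value of 0.0216, a median of 0.346 and a highest value of 1.91 in ethanol. In water the lowest was 0.510, the median 0.831 and the highest 1.49. Of the ethanol libraries, 7 lay at 0.774 or below, and replicate 8, with 92 X calls in 807, lay above every water library. The means were 0.518 ± 0.615 and 0.901 ± 0.389 (SD, n = 8 each), a difference of -0.383 (SE 0.257, exact permutation p = 0.159, adjusted 0.363). Ethanol was higher in 11 of 64 pairs. Without ethanol replicate 8 the difference was -0.582, ethanol was higher in 3 of 56 pairs, and the exact permutation p was 0.00528. Its adjusted p was then 0.0687, or 0.0593 with all 13 measures refitted without that library. A single library therefore moved this value by more than 1.5 times.

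Along the autosomes, the regions next to the centromere gave the smallest p of the 13 measures. Mouse chromosomes carry the centromere at one end, beside the satellite repeats, and the assembly leaves the first 3 Mb unsequenced. The centromere-proximal ratio is the share called in the 10 Mb that follow, over the share called in the rest of the autosomes. In ethanol it ran from 0.618 to 1.41 with a median of 0.989, and in water from 0.928 to 1.72 with a median of 1.39. The groups overlapped, although 7 of 8 water libraries lay above 1 against 4 of 8 ethanol libraries. The means were 1.00 ± 0.265 in ethanol and 1.35 ± 0.241 in water (SD, n = 8 each). The difference was -0.341 (SE 0.127), with an exact permutation p of 0.0191 that did not pass adjustment (0.248). Water was higher in 7 of 8 plate rows. At the opposite end, the last 10 Mb of each autosome, the ratio was 1.08 ± 0.263 in ethanol and 1.03 ± 0.257 in water (exact permutation p = 0.664, adjusted 0.664, n = 8 each).

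Base composition of the called windows did not differ between solvents beyond the spread between libraries, although most libraries lay above the genome average. Called windows exceeded the average GC content of 41.8% by 0.306 ± 0.477 percentage points in ethanol and 0.0605 ± 0.245 in water (SD, n = 8 each, exact permutation p = 0.220, adjusted 0.398). All ethanol libraries but replicate 8 lay above 0, while replicate 8 lay at -0.643. In water, 6 of 8 lay above 0. Without ethanol replicate 8 the mean in ethanol was 0.442 and the difference 0.381 (exact permutation p = 0.0137, adjusted 0.124, or 0.0593 with all 13 measures refitted). Without ethanol replicate 6 the difference was 0.147 (exact permutation p = 0.421).

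Windows were also sorted by GC into 5 groups of equal size. In ethanol, the lowest group (up to 38.1% GC) was called at 0.893 ± 0.153 times the library average, and the highest (from 45.2% GC) at 1.10 ± 0.168 times. In water the same groups were called at 0.977 ± 0.0859 and 1.03 ± 0.112 times (SD, n = 8 each). Windows with a protein-coding gene, which are 53.1% of all, were over-represented by 4.10 ± 4.25 percentage points in ethanol and 2.98 ± 2.37 in water (exact permutation p = 0.540, adjusted 0.623, n = 8 each). That difference of 1.13 points was 0.453 without ethanol replicate 6 and 2.45 without ethanol replicate 8 (for the latter, exact permutation p = 0.0583, adjusted 0.239), and 0.687 on the autosomes alone.

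**Figure D5:**
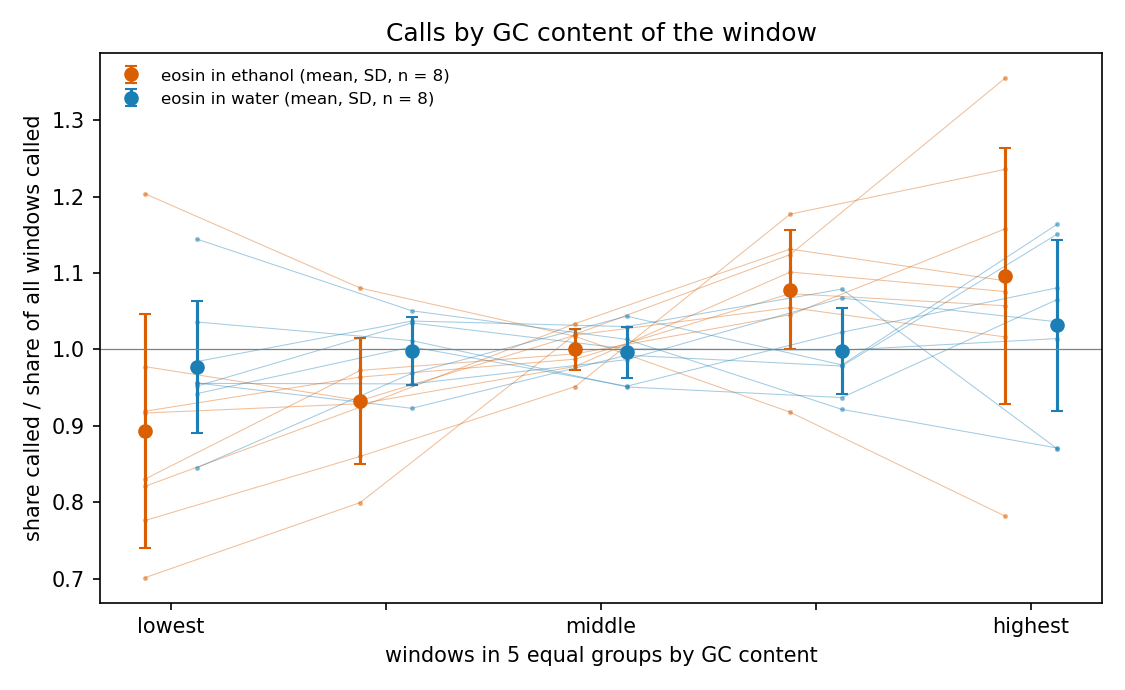
Share of windows called in each of 5 equal groups by GC content (lowest to highest), relative to all windows of that library. Thin lines are libraries and large points are means with SD (n = 8). The ethanol mean is 0.893 in the lowest group and 1.10 in the highest, and the water mean is 0.977 and 1.03.

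Libraries of the same solvent were not detectably more alike than libraries of different solvents. Likeness of a pair of libraries was measured by phi, the correlation of their calls over all windows. It averaged 0.0113 over the 28 ethanol pairs, 0.00618 over the 28 water pairs and 0.00788 over the 64 mixed pairs. The closest pair, ethanol replicate 1 and water replicate 4, had a phi of 0.0349 and shared 694 windows. Within-solvent pairs exceeded mixed pairs by 0.000868 on average (one-sided exact permutation p = 0.263). Mixed pairs from the same plate row did not exceed the other mixed pairs (difference -0.000149, exact permutation p = 0.508).

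At the level of 1 Mb bins no region differed after adjustment. Of 2457 bins tested, 0 had an adjusted p below 0.05, and by limma 0 as well. At an unadjusted exact permutation p below 0.05 there were 55 bins higher in ethanol (2.24% of those tested) and 44 higher in water (1.79%), and limma gave 98 in both directions together. The split depends on the scaling: with the share called not divided by the coverage of the library, 79 bins were higher in ethanol and 15 higher in water at that threshold, and again 0 after adjustment. On the X, relative coverage was higher in water in 93 of 127 bins, compared with 1100 of 2330 autosomal bins.

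The bins with the smallest p in each direction are given as values, with adjusted exact permutation p = 1 for all 6 (n = 8 each). Those higher in ethanol were chr12:118000001-119000000, which holds Ptprn2 and Rapgef5, and chr5:89000001-90000000, which holds Dck, Slc4a4 and Gc among others. Also higher was chr4:104000001-105000000, which holds part of Dab1 among 8 coding genes. In the chr5 bin, which includes the gene for vitamin D binding protein (Gc), relative coverage was 3.56 ± 2.28 in ethanol, with a call in 8 of 8 libraries, and 0.462 ± 1.05 in water, with a call in 2. Those higher in water were chr2:38000001-39000000, chr3:88000001-89000000 and chr2:39000001-40000000. The first of these holds Nr5a1 and Nr6a1, nuclear receptor genes, and Lhx2, a developmental transcription factor. Its relative coverage was 0.391 ± 0.527 in ethanol, with a call in 4 libraries, and 3.55 ± 1.79 in water, with a call in 8. The unadjusted exact permutation p of this bin was 0.000622. The chr3 bin is rich in genes, with 38 coding genes including Lmna, which encodes lamin A and C. It was called in 3 ethanol and 8 water libraries.

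Few single 40 kb windows could be tested with any power. Of the 1706 windows called in 4 or more of the 16 libraries, 0 had an adjusted p below 0.05 by Fisher's exact test. The unadjusted exact p was below 0.05 for 23 windows called in more ethanol libraries (1.35% of those tested) and for 1 called in more water libraries (0.0586%). This split is of calls not divided by coverage, which was higher on average in ethanol. Of those tested, 1329 were called in exactly 4 libraries, where the exact p cannot go below 0.0769, and 308 in exactly 5, where it cannot go below 0.0256. The smallest unadjusted exact p obtained was 0.0256, that of a window called in 5 libraries of one solvent and 0 of the other. Windows in Fndc3b, in Dab1, which encodes an adaptor of reelin signalling, in Mkln1 and in Ubn2, which encodes a partner of the histone chaperone HIRA, were called in 5 ethanol and 0 water libraries, as was a window without a gene on chromosome 5. The reverse, 0 and 5, held only for chr8:6080001-6120000, which contains no annotated gene. Next in that direction, at 0 and 4 (exact p = 0.0769), came windows without a gene at chr2:36440001-36480000 and chr3:6760001-6800000. At the same counts came a window with Scai at chr2:39000001-39040000 and a window with Adh1 at chr3:137920001-137960000. Among windows tied in counts, in either direction, only the first in genome order are named, so these are not a ranking. The Dab1 and Scai windows lie within 1 Mb bins named above.

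Gene lists were read at the window that holds the annotated start of each gene. These lists describe where genes of known function fell, and none was tested as a set. Over all 15883 windows with a protein-coding start, 38% were called in more ethanol than water libraries and 19.3% in more water than ethanol libraries. Over all 65983 windows the counts were 23141 and 12896. The median was 1 library of the 16. These counts are not divided by coverage, which was higher on average in ethanol, so a scaled value is given beside each list. On that scale the mean over all windows of a library is 1.

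Genes of the pluripotency network, which maintain the embryonic stem cell state, were all found. Of the 20, 9 were called in more ethanol libraries, 3 in more water libraries and 8 in equal numbers, with a median of 1 library. Relative to the coverage of each library, the list was called at 0.994 ± 0.667 in ethanol and 1.02 ± 0.976 in water (SD, n = 8 each). Sox2, Klf4 and Dppa3 were each called in 2 ethanol libraries and 1 water library, the most of the list. Pou5f1, the gene of Oct4, was called in 1 and 1, and Nanog in 1 and 0. Klf5, Zfp42, Nr5a2 and Dppa5a were called in none of the 16.

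Of 20 housekeeping genes, used in every cell for metabolism and translation, 7 were called in more ethanol libraries, 7 in more water libraries and 6 in equal numbers. Relative to coverage, the list was called at 0.910 ± 0.635 in ethanol and 1.34 ± 0.760 in water (SD, n = 8 each). Gusb and Ywhaz were each called in 1 ethanol and 2 water libraries, and Rps18, a ribosomal protein gene, in 2 and 1. Ppia, Polr2a and Rpl13a were called in 2 and 0, and Pgk1 and Hsp90ab1 in 0 and 2. The median was again 1 library.

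Lineage genes, which are mostly silent in embryonic stem cells, gave 7 in more ethanol libraries and 8 in more water libraries among the 19 found, and 0.735 ± 0.805 in ethanol and 1.36 ± 0.951 in water relative to coverage (SD, n = 8 each). Sox1 was not matched in the annotation. The muscle factor Myod1 was called in 1 ethanol library and 2 water libraries, and the endoderm factor Gata6 in 0 and 2. Cdx2 and Pdx1 start in the same window and share their values. Among 20 long neuronal genes, 6 were called in more ethanol and 4 in more water libraries, and relative to coverage the list was called at 1.08 ± 0.948 and 1.28 ± 0.740 (SD, n = 8 each). Dlg2, a synaptic scaffold gene, was called in 2 and 2, the most of any listed gene. At their start windows, Pcdh15 and Dab1 were both called in 2 and 0. No listed gene had an unadjusted Fisher exact p below 0.467.

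Many called windows were also called in water controls. Of the called windows, 40.5% ± 2.77 in ethanol and 41.3% ± 1.48 in water (SD, n = 8 each) were also called in some water control. The solvents did not differ beyond the spread between libraries (exact permutation p = 0.499, adjusted 0.623), and the difference of -0.795 points was -0.0678 without ethanol replicate 8, -0.417 without water replicate 6 and -1.42 without ethanol replicate 6. Of all windows, 38.3% were called in some water control. The ethanol libraries ran from 35.4% to 44.9% and the water libraries from 39.3% to 44.0%, and this was not tested against the share of all windows. Most of that overlap came from the pair of controls with high coverage. Against the 9 controls under 1% coverage, which together called 1.30% of windows, the share was 1.5% ± 0.15 in ethanol and 1.44% ± 0.220 in water (SD, n = 8 each).

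Set against other stains in the series, the 16 eosin libraries had higher coverage than crystal violet and SYBR Gold libraries, and these groups and frozen propidium iodide were the only ones compared. Coverage was 6.89% ± 3.38 with eosin (n = 16), 0.559% ± 0.190 with crystal violet (n = 16) and 2.60% ± 2.03 with SYBR Gold (n = 15), both lower in a permutation test adjusted over 9 tests (p = 9.0e-05, which rests on the smallest p these permutations can give, and p = 0.00054). Every eosin library exceeded every crystal violet library. Frozen propidium iodide libraries had 5.02% ± 5.09 (n = 21), which did not differ beyond the spread between libraries (permutation test, adjusted p = 0.210). In medians the eosin libraries were higher by 3.58 points, against 1.88 in means (7.10% and 3.51%, permutation test, adjusted p = 0.0504). The GC shift was 0.183 ± 0.387 points with eosin (n = 16), below the 0.735 ± 0.423 of propidium iodide (n = 21, permutation test, adjusted p = 0.00054). It was also below the 0.563 ± 0.474 of SYBR Gold (n = 15, permutation test, adjusted p = 0.0296), a call lost when windows called in any water control were left out (adjusted p = 0.0895) or when medians were compared (adjusted p = 0.0504). With crystal violet the shift was -0.0396 ± 0.476 (n = 16), lower than with eosin by 0.223 (permutation test, adjusted p = 0.200). Each stain was its own experiment, so stain and experiment cannot be told apart. Coverage with eosin exceeded that with crystal violet for either solvent, at 8.34% and 5.44%.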

How the data were processed

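The authors deposited a table of calls (0 or 1) for 40 kb windows in 199 libraries. Per the labels and methods, they aligned reads to mm9 with Bowtie2 (version 2.1 in the submitters' notes), removed PCR duplicates and called windows with at least 4 reads. Of 68162 rows, 65983 on chromosomes 1 to 19 and X were used. Read totals were not used here, so depth is unknown, and coverage intervals (Wilson 95%) cover counting error only. The staining recipe is that of the labels. The methods of the paper describe other eosin recipes, and there the water and ethanol recipes differ in eosin and acid content too. Which recipe applies to these libraries is not known.

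For each library 13 measures were computed. Solvents were compared by two-sided exact permutation tests over all 12870 splits (smallest p 0.000155), with Benjamini-Hochberg adjustment and a threshold of 0.05. Bins of 1 Mb needed a call in 4 or more libraries, and windows were tested by Fisher's exact test. Other stains were compared by permutation tests with 100000 resamples. Genes were from GENCODE M1 (mm9), with 79 of 80 listed genes matched. Alternatives left out each library, blocked by plate row, used medians or limma, or dropped water-control windows, among others. In an alternative, the adjusted p of a solvent measure set its new p beside the main p-values of the other measures, unless called refitted. The labels do not pair rows, so rows were not taken as pairs. Same-row libraries were not detectably more alike by phi, which compares the windows called and cannot show whether rows shared coverage.

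Named items were, by rule, the 5 windows called most often, the 5 with the largest difference each way, the 3 bins each way and 3 chromosomes with the smallest p, and up to 4 genes a list. Ties followed genome order. A gene of the lineage list is not reported here by name. Pou5f1, Nanog, the pluripotency genes with no call and the housekeeping genes beyond 4 (Polr2a, Rpl13a, Pgk1, Hsp90ab1) were added after their values were seen. The 16 libraries and the lists were chosen with earlier results of these data known. Software was Python 3.11.15 with numpy 2.4.6 and scipy 1.17.1, and R 4.3.3 with limma 3.58.1. The tests were tried on simulated data.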

Additional observations from a re-analysis of the deposited data

Results flagged for a closer look

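Among the 66 groups of 8 values examined (13 measures and 20 chromosomes in either solvent), 11 held a library far from the others of its group (the gap to the nearest library, relative to the range of the group, was above Dixon's 95% critical value). Chance flags about 1 in 20 independent, normally distributed groups, and these groups share libraries and overlap in what they measure. Ethanol replicate 8 accounted for 5 of these. Its neighbour excess was 7.73 points (nearest library 29.2), its X to autosome ratio 1.91 (nearest 0.774) and its gene window shift -5.17 points (nearest 2.49). Its relative coverage was 1.81 for the X and 2.23 for chromosome 18. The library had 807 calls, the fewest of the 16.

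Ethanol replicate 4 stood apart in chromosome unevenness (0.671, nearest 0.533) and in relative coverage of chromosome 7 (3.06) and chromosome 13 (1.99). For chromosome 2, ethanol replicate 2 had 1.56 and water replicate 7 had 2.27. The log2 co-call enrichment at 4 Mb was 0.39 in water replicate 6, where the nearest library had 0.69.

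Windows of the Y chromosome, which no comparison used, were called at a mean of 1.29% ± 1.76 in ethanol (4 of 8 libraries with a call) and 0.942% ± 0.847 in water (6 of 8), against a mean of 0.343% in the water controls (2 of 11 with a call). The single mitochondrial window was called in 7 ethanol and 6 water libraries, in the unstained library and in 5 of 11 water controls.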

How the results depend on the processing

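No difference between the solvents passed its adjusted threshold in any setting tried, and single windows had little room to, since most could not reach a low p. With plate row as a replicate block (exact sign-flip test), coverage differed by 2.90 points (p = 0.0469, adjusted 0.299) and the centromere-proximal ratio by -0.341 (p = 0.0234, adjusted 0.299), and the block changed no call. The log2 enrichment at 4 Mb turned to 0.0578 without windows called in a water control, the distal ratio to -0.0321 with ends of 5 Mb, and the water-control share to 0.0611 points with only controls under 1% coverage, a setting chosen after seeing the data. Leaving out each library in turn moved the distal ratio difference between -0.00838 (without water replicate 4) and 0.115, and the within-solvent excess of phi between -8.5e-05 (without ethanol replicate 5) and 0.00179. It was also below 0 without ethanol replicate 7 (-4.8e-05). The GC shift of eosin below SYBR Gold was -0.275 without water-control windows and -0.206 in medians, and neither passed the threshold (adjusted p = 0.0895 and 0.0504). Leave-one-out differences ran from 2.15 to 3.91 points in coverage, -0.582 to -0.299 in X ratio and -0.401 to -0.286 in centromere-proximal ratio. Differences between the solvents in medians were larger by over 1.5 times for neighbour excess (5.89 points), enrichment at 400 kb (-0.31), run length (0.186 windows) and the distal ratio (0.129). The causes were not tested. Depth is unknown, and with 8 libraries a group no window reached an unadjusted exact p below 0.0256.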
